A study of Mus musculus with 6 samples.

Results

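The 6 chemokine genes followed here are ones that CD8 T cells are known to transcribe, measured across all single-cell RNA libraries: Ccl3, Ccl4, Ccl5, Ccl1, Xcl1 and Cxcl10. They were chosen by name, as 6 of the 32285 genes in the count matrices, by a rule that uses no measured value, with earlier results of these data known. Mice carried B16-OVA tumors, a melanoma line that makes the model antigen ovalbumin. Their CD8 T cells were taken from the tumor and from the draining lymph node (LN) on day 12 as CD45+CD3+CD8+Tomato+ cells. Control mice had the genotype CD8-Cre Rosa26Tomato, and CD8-IFNγRKO mice had CD8-Cre IFNgR1flox/flox Rosa26Tomato, so both carried the Cre and the Tomato reporter. By the study's design the Cre acts in CD8 T cells, which leaves the interferon-γ receptor intact in the tumor and in other host cells.

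The 4 groups were each made from 3 pooled mice. There was 1 library per group, so every comparison is a description of these libraries with no test, and the intervals given cover counting error only. After cell filtering, 6640 cells remained for control LN, 6731 for CD8-IFNγRKO LN, 7094 for control tumor and 8631 for CD8-IFNγRKO tumor, with medians of 4051, 3863, 6301.5 and 9399 transcript counts (unique molecular identifiers, UMIs) per cell. Levels are given as CPM, the UMIs of a gene over all cells of a group, scaled so that every group has the same total. All 6 CD8 T cell markers were above 5 CPM in each library, with summed levels from 4432 to 6632 CPM. The summed markers of other cell types ran over the libraries from 2.67 to 16.8 CPM for myeloid cells, 0.438 to 22.2 CPM for B cells, 0.501 to 3.76 CPM for natural killer cells and 0.200 to 3.24 CPM for melanoma cells. Those of CD4 and γδ T cells were at 5.26 CPM in control tumor and 22.6 CPM in CD8-IFNγRKO tumor, of which Tcrg-C1 made up 16.2 CPM, and their part in the differences between the tumors was not tested. Between 51 and 82 cell barcodes were shared by each pair of libraries, at most 1.23% of a library. Ifngr1, the floxed gene, was at 182 CPM in control LN, 137 CPM in CD8-IFNγRKO LN, 718 CPM in control tumor and 238 CPM in CD8-IFNγRKO tumor. The counts do not show which exons these UMIs came from, so they check the genotype only in part.

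Chemokines are small secreted proteins that direct cell movement through G protein-coupled receptors. CCL3, CCL4 and CCL5 are inflammatory chemokines that attract T cells and myeloid cells, and CCL3 and CCL5 bind CCR1. CCL1 binds CCR8, a receptor of regulatory T cells, while XCL1 binds XCR1 on cross-presenting dendritic cells. CXCL10 binds CXCR3 on activated T cells and is a classical interferon-induced gene. Effector and memory CD8 T cells store Ccl5 RNA, whereas Ccl3, Ccl4, Ccl1 and Xcl1 are induced within hours of antigen recognition. In the mouse genome build GRCm38, Ccl5 (chromosome 11, 83525778 to 83530518), Ccl3 (83647843 to 83649378) and Ccl4 (83648624 to 83664683) lie within 139 kb of each other, and Ccl1 (82176666 to 82179812) lies on the same chromosome. Xcl1 is on chromosome 1 (164931644 to 164935522) and Cxcl10 on chromosome 5 (92346638 to 92348889). The RefSeq interval of Ccl4 overlaps that of Ccl3, and whether reads could be assigned to the wrong gene there was not tested.

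The first comparison asked how far chemokine RNA differed between the tumor and the node that drains it. All 6 genes were at least 2-fold higher in the tumor than in the LN in both genotypes. Of all 9463 genes at 5 CPM or more in either control library, 16% were at least 2-fold higher in the tumor, and the share was 16.8% of 9449 genes in CD8-IFNγRKO mice. Ccl1, Ccl3 and Cxcl10 were below 5 CPM in both LN libraries, so they passed that limit only through the tumor. The count of 6 is thus in part fixed by the limit. The median log2 ratio of the 6 genes was 5.45 in control and 4.24 in CD8-IFNγRKO mice, against 0.02 and 0.03 for all genes tested. Ratios are log2 of CPM with 1 CPM added on both sides.

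Ccl3 was close to absent in the nodes, at 2.005 CPM in control and 1.53 CPM in CD8-IFNγRKO mice, and stood at 509 and 434 CPM in the tumors. Its log2 ratio of tumor over LN was 7.41 (interval 7.15 to 7.65) in control mice and 7.43 (7.16 to 7.69) in CD8-IFNγRKO mice. Ccl4 was at 29.6 and 17.2 CPM in the nodes and at 1347 and 1233 CPM in the tumors. Ccl5 was present in the nodes at 187 and 152 CPM, and reached 8179 CPM in control tumor and 2763 CPM in CD8-IFNγRKO tumor. For Ccl3, Ccl4 and Ccl5 the tumor level was at least 18.2 times the node level in both genotypes.

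Ccl1 was hardly detected in the nodes. A single UMI was found among the 6640 control LN cells, and 7 UMIs were found in CD8-IFNγRKO LN, all in 1 cell. In the tumors Ccl1 was at 49.4 CPM in control (2932 UMIs) and 23.4 CPM in CD8-IFNγRKO mice (2198 UMIs). With so few node UMIs, its log2 ratios of 5.61 (5.41 to 5.65) and 4.30 (4.02 to 4.48) depend on the 1 CPM added.

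Xcl1 had the lowest tumor to node ratio of the 6 genes in control mice. It was at 22.3 CPM in control LN, 16.9 CPM in CD8-IFNγRKO LN, 47.5 CPM in control tumor and 150.2 CPM in CD8-IFNγRKO tumor. The log2 ratio was 1.06 (0.94 to 1.18) in control and 3.08 (2.95 to 3.20) in CD8-IFNγRKO mice. The control value was not stable: among cells of 4000 to 8000 UMIs, a restriction chosen after seeing the data, it was -0.25. One control LN cell held 143 of the 667 Xcl1 UMIs of its library, and without it the control LN level was 17.5 CPM. Cxcl10 was low in all libraries, at 2.71 CPM in control LN, 0.832 CPM in CD8-IFNγRKO LN, 17.02 CPM in control tumor and 16.7 CPM in CD8-IFNγRKO tumor.

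**Figure D1:**
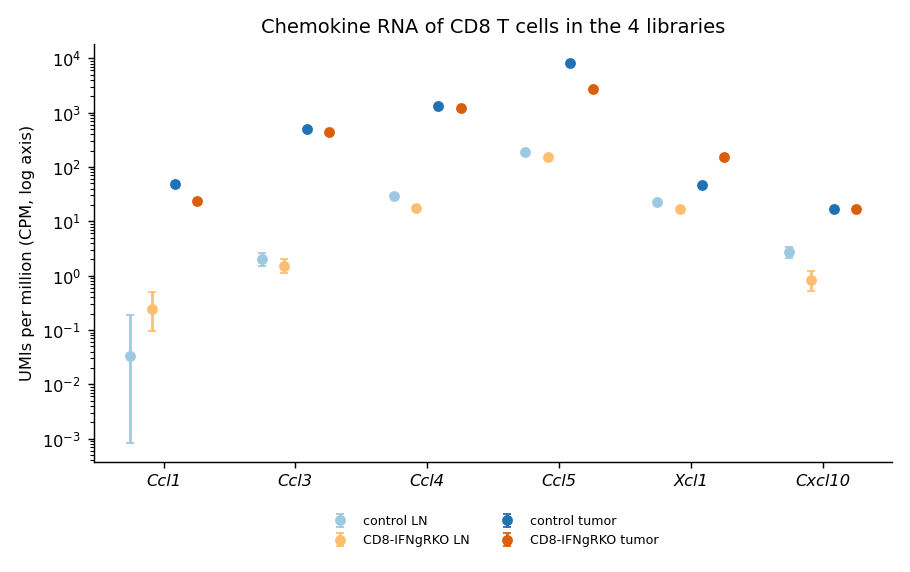
Level of each chemokine gene in the 4 libraries, in CPM on a log axis. Points are pooled cells of 1 library each and bars are exact 95% Poisson intervals, which cover counting error only. The tumor points lie above the LN points for all 6 genes, and the largest gap between the tumor points is that of Xcl1, with Ccl5 next.

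The share of cells with a UMI was compared after thinning each cell to 1600 UMIs, so that depth was equal. Ccl5 was detected in 93.5% of control tumor cells (92.8 to 94.1%) and 73.7% of CD8-IFNγRKO tumor cells (72.7 to 74.6%), and in 6.62% and 6.01% of LN cells. At full depth the tumor shares were 97.3% and 90.01%. Ccl4 was detected in 50.4% and 50.2% of thinned tumor cells, and Ccl3 in 26.2% and 28.0%. The other genes were detected in few tumor cells: Xcl1 in 2.60% and 7.22%, Ccl1 in 2.21% and 1.76%, and Cxcl10 in 1.85% and 2.10%. At least 1 of the 6 genes was seen in all but 3.83% of control and 13.3% of CD8-IFNγRKO tumor cells, whereas 91.6% and 92.7% of LN cells had none.

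Free RNA can give UMIs to cells that do not make a transcript, so barcodes of other cell classes were read as background. In control tumor, 24 barcodes carried at least 2 melanoma markers and no CD8 T cell marker, at a median of 772 UMIs against 6301.5 for the T cells. Ccl5 was seen in 15 of these 24 (62.5%), at 1152 CPM, Ccl3 in 16.7% and Ccl4 in 12.5%. Neither Ccl1 nor Xcl1 was seen in them, which allows a share of up to 12.5%, taken as 3 counts over the 24 barcodes. Cxcl10 was seen in 3 of the 24 (12.5%, exact interval 2.66 to 32.4%), beside 6.37% of control tumor T cells and 7.80% of CD8-IFNγRKO tumor T cells at full depth. In CD8-IFNγRKO tumor, 6 such barcodes had a median of 4124 UMIs, with Ccl5 in 1 and Cxcl10 in 2 of them. The Cxcl10 shares in these barcodes were no lower than in the T cells, but they rest on few barcodes of other depth. They therefore cannot tell whether Cxcl10 in the T cells lay above background. The source of Cxcl10 in these barcodes was not tested. In the nodes, 11 barcodes per library with B cell markers and no CD8 T cell marker (medians 2416 and 2470 UMIs) had no UMI of Ccl5, Ccl3, Ccl1, Xcl1 or Cxcl10, and 1 UMI of Ccl4 in each library.

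Transcripts of the rarer genes were concentrated in few cells. The 1% of cells with most UMIs of the gene held 76.8% of Ccl1 UMIs in control tumor and 75.8% in CD8-IFNγRKO tumor, 75.3% and 59.7% of Xcl1, and 51.1% and 50.6% of Cxcl10. The corresponding shares were 27.3% and 26.4% for Ccl3, 19.6% and 20.5% for Ccl4, and 6.05% and 7.96% for Ccl5. Single cells reached 592 and 779 UMIs of Ccl4, 376 and 331 of Ccl3, and 176 and 420 of Xcl1. The median tumor cell had 1 Ccl3 UMI in both libraries and 2 Ccl4 UMIs in control against 3 in CD8-IFNγRKO mice. For Ccl5 the median was 45 UMIs in control and 14 in CD8-IFNγRKO tumor.

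The second comparison asked what loss of the interferon-γ receptor in CD8 T cells went with inside the tumor. Xcl1 was higher in CD8-IFNγRKO tumor, Ccl5 and Ccl1 were lower, and Ccl3, Ccl4 and Cxcl10 differed by at most 1.17-fold. Past 2-fold were thus 1 gene higher, where 0.725% of 8971 genes tested were higher, and 2 lower, where 1.06% were lower. The median log2 ratio over all tested genes was 0.01, and over the 6 genes -0.18.

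Ccl5 was at 8179 CPM in control and 2763 CPM in CD8-IFNγRKO tumor, a log2 ratio of -1.57 (-1.57 to -1.56). Only 0.357% of tested genes had a lower ratio. Both the share of positive cells and the amount per positive cell were lower, with a mean of 70.3 UMIs per positive cell in control and 33.4 in CD8-IFNγRKO tumor, or 16.5 and 8.65 in thinned cells. Ccl5 was also seen in barcodes with no CD8 T cell marker in both tumors. The part of free RNA in this difference was not tested. Xcl1 was at 47.5 CPM in control and 150.2 CPM in CD8-IFNγRKO tumor, a log2 ratio of 1.64 (1.58 to 1.70), and 99.8% of tested genes had a lower ratio. Positive cells held a mean of 7.0 Xcl1 UMIs in control and 11.6 in CD8-IFNγRKO tumor, or 2.61 and 3.16 in thinned cells. Ccl1 had a log2 ratio of -1.05 (-1.12 to -0.97), and it passed 2-fold under some processing choices only, since its ratio was -0.80 in thinned cells and -0.88 as the mean of single-cell CPM.

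The inflammatory chemokine pair Ccl3 and Ccl4 was close to equal in the tumors. Ccl3 had a log2 ratio of -0.23 (-0.25 to -0.21) and Ccl4 of -0.13 (-0.14 to -0.11). Both turned slightly positive among cells of 4000 to 8000 UMIs, at 0.04 and 0.16. In the other depth classes, given below, both were lower in CD8-IFNγRKO tumor. Cxcl10 had a log2 ratio of -0.03 (-0.14 to 0.08), an interval that includes 0.

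Cells of the CD8-IFNγRKO tumor library were deeper, and several of the genes varied with depth, so the libraries were also compared within classes of UMIs per cell. Ccl5 was lower in deeper cells: it went from 11153 CPM below 4000 UMIs to 6234 CPM at 16000 UMIs or more in control tumor, and from 7508 to 1647 CPM in CD8-IFNγRKO tumor. In each of the 4 classes the control level was above the CD8-IFNγRKO level. At 4000 to 8000 UMIs, Ccl5 had a log2 ratio of -1.003, a smaller difference than over all cells. Xcl1 was higher in CD8-IFNγRKO tumor in each class, with 49.2 against 85.1 CPM below 4000 UMIs and 19.5 against 173.9 CPM at 4000 to 8000 UMIs. Ccl1 was higher in deeper cells, from 7.68 to 71.5 CPM in control and from 6.40 to 29.9 CPM in CD8-IFNγRKO tumor, and below 4000 UMIs its intervals in the libraries overlapped. Ccl3 was higher in deeper cells too, from 304 to 627 CPM in control and from 255 to 489 CPM in CD8-IFNγRKO tumor. Outside 4000 to 8000 UMIs, Ccl3 and Ccl4 were lower in CD8-IFNγRKO tumor in each class. At 8000 to 16000 UMIs, Ccl3 was at 571 against 424 CPM and Ccl4 at 1434 against 1302 CPM, control first. Cxcl10 was highest in the shallowest class, at 25.4 CPM in control and 53.8 CPM in CD8-IFNγRKO tumor.

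**Figure D2:**
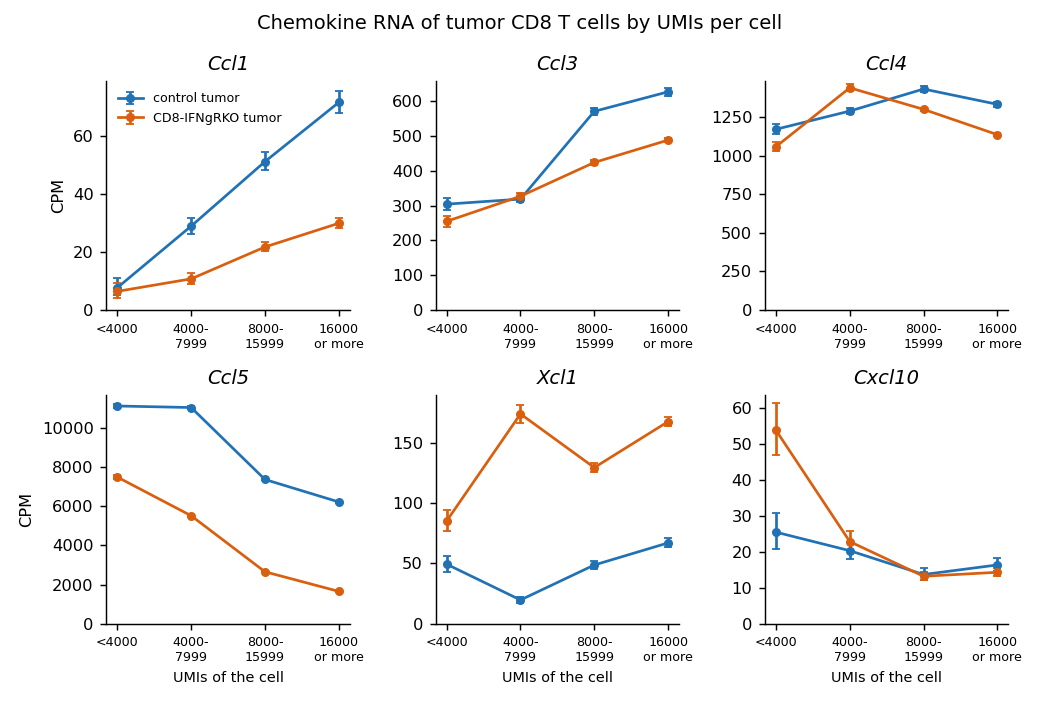
Level of each gene in tumor CD8 T cells of 4 classes of UMIs per cell, in CPM on a linear axis from 0. Points pool the cells of a class, and bars are exact 95% Poisson intervals. Ccl5 lies lower in CD8-IFNγRKO tumor and Xcl1 higher in all 4 classes, while the lines of Ccl4 cross.

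T cell receptor (TCR) sequences of the tumor libraries assigned cells to clones. A clone could be given to all but 39.7% of control and 31.2% of CD8-IFNγRKO tumor cells. There were 22 control clones and 25 CD8-IFNγRKO clones of 20 or more cells, numbered here by size within each tumor. Clones of 1 tumor share 3 mice and a library and are not replicates of the genotype. Ccl5 ranged over the control clones from 3200 to 16938 CPM with a median of 8977 CPM, and over the CD8-IFNγRKO clones from 1321 to 16195 CPM with a median of 2939 CPM. Of the 25 CD8-IFNγRKO clones, 15 lay below the lowest control clone and 1 lay above the control median. Without the largest clone of each tumor the log2 ratio of Ccl5 was -1.41.

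Xcl1 differed between clones over a wide range. Control clones ran from 0 to 345 CPM with a median of 8.79 CPM, and CD8-IFNγRKO clones from 4.02 to 1043 CPM with a median of 75.7 CPM. The median control clone lay below 22 of the 25 CD8-IFNγRKO clones. The 4 CD8-IFNγRKO clones above all control clones were clones 10, 14, 15 and 25, at 1043, 796, 744 and 855 CPM. In clone 10, with 133 cells, 37.6% of cells had an Xcl1 UMI and the top cell held 12.4% of the UMIs. In clone 25, with 26 cells, 1 cell held 87.8% of the Xcl1 UMIs, and in control clone 11 the top cell held 91.2%. Counting each clone once, an alternative chosen after seeing the data, gave log2 ratios of 2.17 for Xcl1 and -1.34 for Ccl5.

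Ccl3, Ccl4 and Ccl1 overlapped broadly between the genotypes at the level of clones. Ccl4 had clone medians of 868 CPM in control and 1109 CPM in CD8-IFNγRKO tumor, and Ccl3 medians of 327 and 355 CPM. Ccl1 had clone medians of 5.14 CPM in control and 8.98 CPM in CD8-IFNγRKO tumor, the opposite direction to its pooled levels. Of the 25 CD8-IFNγRKO clones, 13 lay above the control median of Ccl1. Ccl1 was at 0 in 8 control clones and 7 CD8-IFNγRKO clones, and control clone 11 had the highest level at 421 CPM, with 55.1% of those UMIs in 1 cell.

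CD8-IFNγRKO clones 8 and 17, singled out after their values were seen, stood apart from the other clones of that tumor. Their Ccl5 levels were 16195 and 8847 CPM, and their Cxcl10 levels were 124.5 and 140.9 CPM, while the other clones of that tumor were at most 6803 CPM for Ccl5 and 55.3 CPM for Cxcl10. Ifngr1 was at 412 CPM in clone 8 and 448 CPM in clone 17, where the other clones of that tumor reached 357 CPM and control clones ran from 415 to 1341 CPM, and Gbp2, an interferon-induced GTPase, was at 194.8 and 184.8 CPM against a median of 47.9 CPM. The clones had 149 and 71 cells with medians of 3211 and 3340 UMIs, under the library median of 9399. Whether the floxed gene was deleted in these clones, and the part of depth in these values, was not tested.

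**Figure D3:**
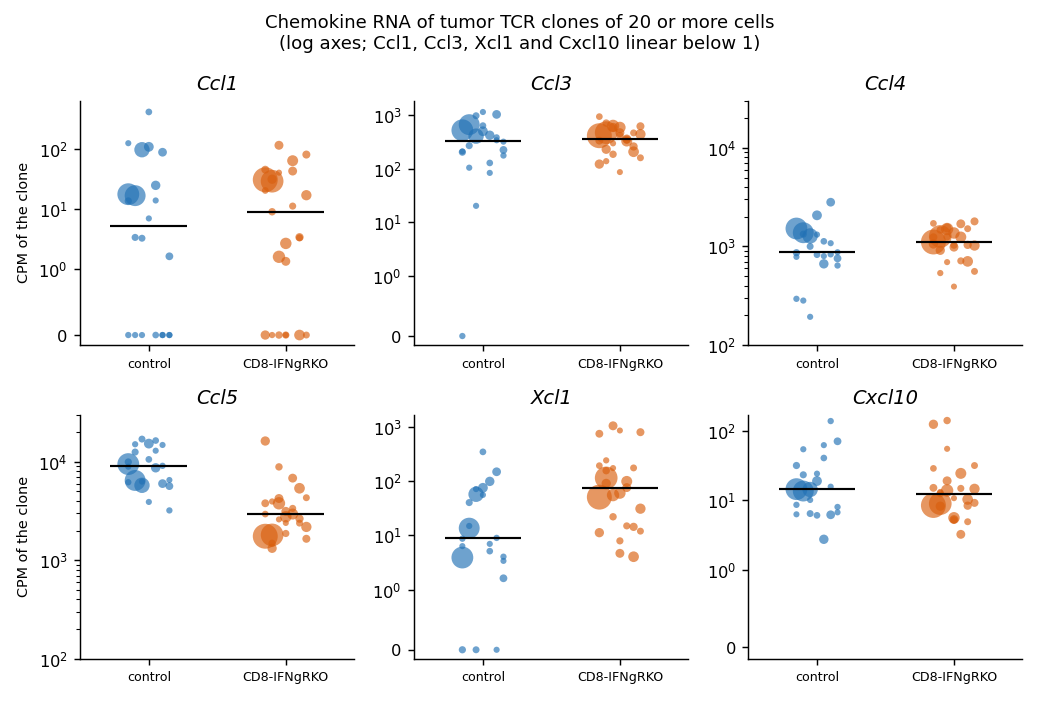
Level of each gene in the TCR clones of 20 or more tumor cells, 22 in control and 25 in CD8-IFNγRKO tumor, in CPM on a log axis that is linear below 1 for Ccl1, Ccl3, Xcl1 and Cxcl10. Each point is a clone, its area increases with the number of cells, and the line is the median over clones. Ccl5 shows 15 CD8-IFNγRKO clones below the lowest control clone, and Xcl1 shows 4 above the highest.

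Cells whose clone was seen once had lower levels of Ccl3, Ccl4 and Ccl5. In control tumor, the 182 cells of clones of 1 cell had Ccl3 at 80.2 CPM and Ccl4 at 388 CPM, against 514 and 1356 CPM in the 4099 cells of clones of 2 or more cells. In CD8-IFNγRKO tumor, the 364 cells of clones of 1 cell had 30.9 CPM of Ccl3 and 290.2 CPM of Ccl4, against 428 and 1189 CPM in 5571 cells. Ccl5 was at 4098 against 8055 CPM in control and 1860 against 2583 CPM in CD8-IFNγRKO tumor. Xcl1 was higher in cells of clones of 1 cell, at 131.8 against 31.6 CPM in control and 428 against 122 CPM in CD8-IFNγRKO tumor. The same held for Cxcl10, at 31.9 against 16.7 CPM and 59.0 against 12.4 CPM. Median depth was also lower in clones of 1 cell, 4041 against 6252 UMIs and 3997.5 against 10368 UMIs.

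In the LN, no gene of the 6 passed 2-fold between genotypes among the 3 with 5 CPM or more (Ccl4, Ccl5 and Xcl1). Of 8719 genes tested, 0.0459% were at least 2-fold higher and 0.0459% at least 2-fold lower in CD8-IFNγRKO LN. Ccl4 had a log2 ratio of -0.75 (-0.90 to -0.59), and 0.126% of tested genes had a lower ratio. Without the 1% of cells highest in Ccl4 its log2 ratio was -1.35. Among cells of 4000 to 8000 UMIs it was -0.30. Ccl5 had a log2 ratio of -0.30 (-0.36 to -0.24), which was 0.05 among cells of 4000 to 8000 UMIs, and Xcl1 of -0.38 (-0.54 to -0.22). Without the top Xcl1 cell of each library the levels were 17.5 CPM in control and 15.2 CPM in CD8-IFNγRKO LN, a smaller difference. Cxcl10 was below 5 CPM in both libraries, with 81 UMIs in control and 24 in CD8-IFNγRKO LN, a log2 ratio of -1.02 (-1.35 to -0.64). Cells below 4000 UMIs held 38 of the control UMIs and 3 of the CD8-IFNγRKO UMIs. At 4000 to 8000 UMIs its levels were 2.03 CPM (1.39 to 2.86) in control and 1.06 CPM (0.593 to 1.75) in CD8-IFNγRKO LN, with overlapping intervals.

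Stem-like T cells, which sustain the response in tumors, are marked by the transcription factor TCF1, encoded by Tcf7. Tumor cells were split by whether they had at least 1 Tcf7 UMI, which 372 control (5.24%) and 835 CD8-IFNγRKO cells (9.67%) had. Tcf7-positive cells were shallower, with medians of 4562.5 against 6390 UMIs in control and 4511 against 9898 UMIs in CD8-IFNγRKO tumor. The effector chemokines Ccl3 and Ccl4 were lower in Tcf7-positive cells, and Cxcl10 and Xcl1 were higher. In control tumor 2 genes were at least 2-fold higher and 1 lower, where 2.77% and 1.28% of 9132 genes tested were. In CD8-IFNγRKO tumor 1 gene was higher and 3 were lower, where 3.52% and 1.42% of 9125 genes were.

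Ccl3 was at 232 CPM in Tcf7-positive and 522 CPM in Tcf7-negative cells of control tumor, a log2 ratio of -1.17 (-1.28 to -1.06). In CD8-IFNγRKO tumor it was at 140.1 and 453 CPM, a log2 ratio of -1.69 (-1.79 to -1.59). Ccl4 was at 714 and 1377 CPM in control (-0.95) and at 529 and 1278 CPM in CD8-IFNγRKO tumor (-1.27). In thinned cells, Ccl4 was detected in 24.2% of Tcf7-positive and 52.0% of Tcf7-negative control cells, and in 23.9% and 53.0% of CD8-IFNγRKO cells. The differences were larger among cells of 4000 to 8000 UMIs, a restriction chosen after seeing the data. The log2 ratios for Ccl3 were then -4.00 in control and -3.35 in CD8-IFNγRKO tumor. These have no interval and rest on only a part of the 372 and 835 Tcf7-positive cells.

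Ccl5 was at 5157 CPM in Tcf7-positive and 8325 CPM in Tcf7-negative control cells, a log2 ratio of -0.69 (-0.72 to -0.67). In CD8-IFNγRKO tumor the levels were 2648 and 2770 CPM, a log2 ratio of -0.07 (-0.09 to -0.04). This near equality over all cells was not seen at 4000 to 8000 UMIs, a restriction chosen after seeing the data, where the log2 ratio was -1.42. In thinned cells of that tumor Ccl5 was detected in 57.3% of Tcf7-positive and 75.4% of Tcf7-negative cells. The mean per positive thinned cell went the other way, at 9.46 Ccl5 UMIs with Tcf7 and 8.58 without. Ccl1 was at 31.1 against 50.3 CPM in control (-0.68) and at 4.39 against 24.6 CPM in CD8-IFNγRKO tumor (-2.25, -2.74 to -1.77). The Tcf7-positive values rest on 85 and 25 Ccl1 UMIs.

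Xcl1 was at 94.8 CPM in Tcf7-positive and 45.3 CPM in Tcf7-negative control cells, a log2 ratio of 1.05 (0.86 to 1.23). In CD8-IFNγRKO tumor it was at 261 and 143.1 CPM, a log2 ratio of 0.86 (0.78 to 0.94). Detection in thinned cells was 8.08% against 2.27% in control and 14.5% against 6.44% in CD8-IFNγRKO tumor. Xcl1-positive cells without Tcf7 held a mean of 7.72 Xcl1 UMIs against 3.65 with Tcf7 in control, and 12.9 against 6.20 in CD8-IFNγRKO tumor, but they were also deeper. In thinned cells the means were 2.84 against 1.55 (29 positive cells with Tcf7) in control and 3.38 against 2.24 (117 cells) in CD8-IFNγRKO tumor. The control ratio was -0.07 when Tcf7 was itself read in thinned cells, and the CD8-IFNγRKO ratio was 0.091 when at least 2 Tcf7 UMIs were asked for. Cxcl10 was at 44.3 against 15.7 CPM in control, a log2 ratio of 1.44 (1.16 to 1.71), and at 42.7 against 14.995 CPM in CD8-IFNγRKO tumor, a log2 ratio of 1.45 (1.25 to 1.64). These values rest on 121 and 243 Cxcl10 UMIs in Tcf7-positive cells, and all alternatives tried gave a higher level there.

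The split was repeated within cells that had a UMI of Pdcd1, which encodes the inhibitory receptor PD-1. The log2 ratios were then -0.75 and -1.20 for Ccl3, -0.58 and -0.90 for Ccl4, 1.30 and 1.06 for Xcl1, and 1.46 and 1.45 for Cxcl10, in control and CD8-IFNγRKO tumor. Ccl5 was at -0.50 and 0.05. The directions of the first 4 genes were those found over all cells, with smaller differences for Ccl3 and Ccl4. The Tcf7-positive groups then held 191 control and 377 CD8-IFNγRKO cells. Median depth with and without Tcf7 was 8274 and 6963 UMIs in control, and 7974 and 10563.5 UMIs in CD8-IFNγRKO tumor. The part of depth in these ratios was not tested.

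**Figure D4:**
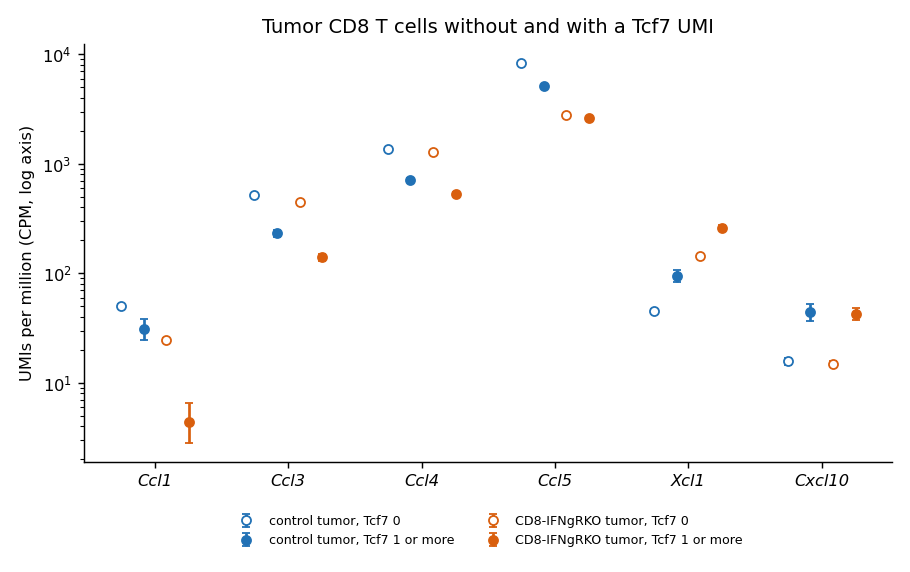
Level of each gene in tumor CD8 T cells without (open points) and with (filled points) a Tcf7 UMI, in CPM on a log axis, in control and CD8-IFNγRKO tumor. Bars are exact 95% Poisson intervals of the pooled cells. The filled points lie lower for Ccl3 and Ccl4 and higher for Xcl1 and Cxcl10 in both tumors.

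Whether the same cells made several of the chemokines was read from detection in thinned tumor cells. Ccl3 and Ccl4 went together. Ccl4 was detected in 73.0% of control cells with a Ccl3 UMI and in 42.4% of those without, and in 74.5% and 40.7% of CD8-IFNγRKO cells. Pearson's r across cells, on log counts, was 0.49 over 6393 control cells and 0.47 over 8353 CD8-IFNγRKO cells, as a description of cells that share a library. Ccl1 and Xcl1 formed the other pair. Xcl1 was detected in 23.4% of the 141 control cells with a Ccl1 UMI against 2.13% of the others, and in 32.7% of the 147 CD8-IFNγRKO cells with a Ccl1 UMI against 6.76% of the others. Cells with Ccl1 also had Ccl3 more often, at 53.2% against 25.5% in control and 49.7% against 27.7% in CD8-IFNγRKO tumor.

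Ccl5 was less frequent beside Xcl1, with 82.5% of Xcl1-positive against 93.8% of Xcl1-negative control cells, and 67.7% against 74.2% in CD8-IFNγRKO tumor. Cxcl10 stood apart from Ccl4, which was detected in 47.5% of Cxcl10-positive and 50.5% of Cxcl10-negative control cells, and in 37.7% and 50.5% of CD8-IFNγRKO cells. In the LN few cells had any of the chemokines. Of the 115 control LN cells with Ccl4, 52.2% had Ccl5, against 5.79% of cells without Ccl4, and in CD8-IFNγRKO LN the shares were 45.6% and 5.60%. Ccl5 was likewise found in 53.7% of control and 39.2% of CD8-IFNγRKO LN cells with Xcl1, against 6.01% and 5.64% of those without.

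**Figure D5:**
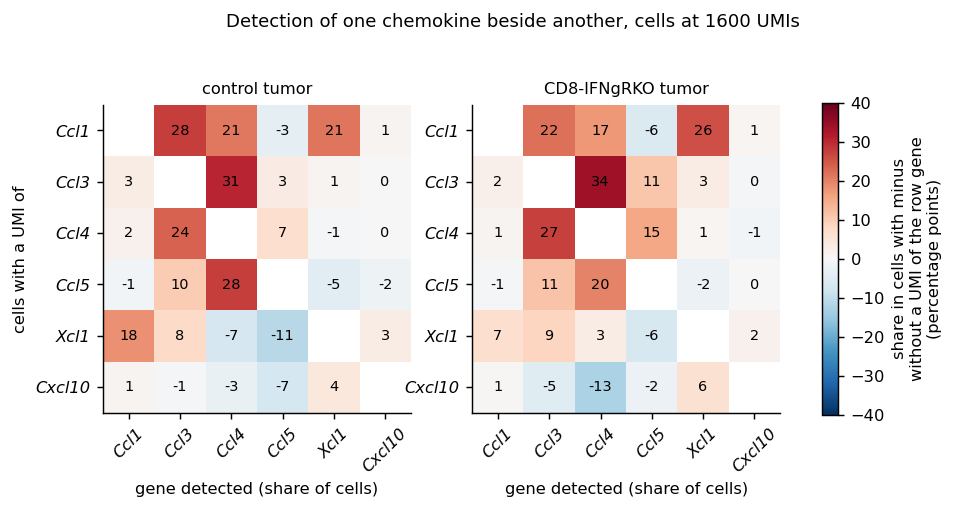
Share of tumor CD8 T cells, thinned to 1600 UMIs, in which the column gene was detected among cells with a UMI of the row gene, minus that share among cells without one, in percentage points. Red marks genes found together more often and blue less often, and the pairs Ccl3 with Ccl4 and Ccl1 with Xcl1 are red in both tumors.

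For each chemokine the 3 genes with the most similar counts across thinned cells were taken, ranked by the lower Pearson's r of the control and CD8-IFNγRKO library. The chemokines followed here were left out of this ranking. In the tumors Ccl3 and Ccl4 were closer to each other (r = 0.49 and 0.47) than to any gene named below. Ccl1 was likewise closer to Xcl1 (0.28 and 0.21). For Ccl5, Xcl1 and Cxcl10 no other of these chemokines came before the first gene named. Ccl3 was most like Ifng, which encodes interferon-γ (r = 0.31 and 0.27), Prf1, encoding perforin (0.23 and 0.21), and Gzmb, encoding granzyme B (0.19 and 0.21). Ccl4 was most like Ifng (0.30 and 0.24), Gzmb (0.23 and 0.22) and Rgs16 (0.17 and 0.21), a regulator of G protein signaling. Ccl5 was most like Nkg7 (0.37 and 0.31), a cytotoxic granule protein, Hcst (0.23 and 0.24) and the major histocompatibility gene H2-K1 (0.23 and 0.26). Ccl1 and Xcl1 shared their first gene, Crtam, an adhesion molecule of activated T cells, with r of 0.27 and 0.18 for Ccl1 and 0.27 and 0.38 for Xcl1. Next were Ifng for Ccl1 (0.11 and 0.10) and Gadd45b for Xcl1 (0.13 and 0.16). Cxcl10 was most like the interferon-induced genes Rsad2 (0.16 and 0.18), Ifit3 (0.15 and 0.19) and Ifit1 (0.12 and 0.18). These correlations in sparse counts are weak and describe single libraries.

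In the LN the genes with the most similar counts included Ly6c2 and Il2rb, known from memory cells. Ccl5 was most like Ly6c2 (0.37 and 0.38), Ctla2a (0.32 and 0.26) and Il2rb (0.27 and 0.24), the interleukin-2 receptor chain that memory cells use for interleukin-15. Xcl1 was most like Ctla2a and Ly6c2, with r between 0.11 and 0.13, and Ccl4 was most like Ifng (0.13 and 0.15), S100a6 (0.20 and 0.13) and Ly6c2 (0.16 and 0.12). The chemokines followed here were left out of this ranking too. By the lower r, Ccl5 was closer than these genes to Ccl4 (0.26 and 0.19) and to Xcl1 (0.19 and 0.13). Ccl4 was also closer to Xcl1 (0.203 and 0.123) than the genes named for Xcl1.

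Gene lists of recent activation and of interferon response were then read in the positive cells. Among thinned control tumor cells, 8 of 13 early activation genes were at least 2-fold higher in cells with a Ccl1 UMI than in cells without, and none was 2-fold lower. Of all 9085 genes tested, 6.71% were higher and 11.4% lower. In CD8-IFNγRKO tumor 5 of the 12 at 5 CPM or more were higher, where 5.57% of 9151 genes were higher and 12.5% lower. Crtam and Ifng are on the activation list and were already named as most similar to Ccl1 in these cells, and Crtam to Xcl1. Their values are thus no separate result. Crtam was at 257 CPM with and 15.7 CPM without Ccl1 in control, and at 217 and 27.9 CPM in CD8-IFNγRKO tumor. Ifng was at 1427 against 424 CPM and at 1386 against 396 CPM. Of 6 interferon-induced genes, 3 were at least 2-fold lower in Ccl1-positive cells of each tumor and none was higher. The Ccl1-positive groups were small, with 141 control and 147 CD8-IFNγRKO cells, so these calls rest on few UMIs. In control, Ifit3 was at 4.43 against 35.7 CPM and Ifit1 at 8.87 against 49.5 CPM. For Xcl1, 5 of 13 early activation genes were higher and 1 lower in control cells with a UMI, where 6.16% of 9189 genes were higher and 8.88% lower. In CD8-IFNγRKO cells 7 of 12 were higher, where 1.93% of 9207 genes were higher and 2.16% lower. Nr4a1, an immediate response gene of TCR signaling, was at 655 CPM with and 288 CPM without Xcl1 in control, and at 313 and 134.4 CPM in CD8-IFNγRKO tumor. It ranked 3 among the genes most similar to Xcl1 in these cells (r = 0.09 and 0.14), under the limit for naming. Its values are thus no separate result either.

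In Cxcl10-positive cells, 3 of 6 interferon-induced genes at 5 CPM or more were at least 2-fold higher in control and 4 in CD8-IFNγRKO tumor, and none was lower. Of all genes tested, 9.66% of 9772 were higher and 11.1% lower in control, and 5.86% of 9264 were higher and 7.94% lower in CD8-IFNγRKO tumor. Of 11 early activation genes, 1 was higher and 1 lower in control, and 3 were higher in CD8-IFNγRKO tumor. Ifit3, a cytosolic antiviral protein already named among the most similar genes, was at 212 CPM with and 31.7 CPM without Cxcl10 in control, and at 339 and 44.3 CPM in CD8-IFNγRKO tumor. Ifit1, also on the interferon list, was named there too. Both are among the 6 interferon-induced genes counted, so those counts are in part no separate result. Isg15 was at 651 against 173.6 CPM and at 736 against 218 CPM. Gbp2 was at 271 against 68.4 CPM in CD8-IFNγRKO tumor. The Cxcl10-positive groups were small, with 118 control and 175 CD8-IFNγRKO cells. Summed myeloid markers were at 31.8 CPM with and 19.3 CPM without Cxcl10 in control, and at 21.4 and 13.0 CPM in CD8-IFNγRKO tumor. They were also at 30.1 against 19.3 CPM with and without Xcl1 in control tumor, and at 16.6 against 12.9 CPM in CD8-IFNγRKO tumor. Their part in these values was not tested.

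Promoter sequence was available for 4 of the 6 genes, and the 250 bases before the start of Cxcl10 and of Xcl1 are shown because the most similar genes were interferon-induced for Cxcl10 and activation-linked for Xcl1. Sequences are from RefSeq, build GRCm38.p6, written 5′ to 3′ on the gene's strand, which is the minus strand in both cases. Capitals mark matches to any of 5 motifs, searched on both strands. These were the interferon-stimulated response element core (GAAA, any 2 bases, GAAA), the STAT site TTCNNNGAA, the AP-1 site TGANTCA, the TCF site CTTTGA and the κB motif.
Cxcl10, chr5:92348890-92349139: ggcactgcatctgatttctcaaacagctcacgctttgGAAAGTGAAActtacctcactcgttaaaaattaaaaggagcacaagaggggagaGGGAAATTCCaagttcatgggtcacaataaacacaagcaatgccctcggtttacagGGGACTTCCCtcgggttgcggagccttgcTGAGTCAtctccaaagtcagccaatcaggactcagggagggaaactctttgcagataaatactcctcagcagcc
Xcl1, chr1:164935523-164935772: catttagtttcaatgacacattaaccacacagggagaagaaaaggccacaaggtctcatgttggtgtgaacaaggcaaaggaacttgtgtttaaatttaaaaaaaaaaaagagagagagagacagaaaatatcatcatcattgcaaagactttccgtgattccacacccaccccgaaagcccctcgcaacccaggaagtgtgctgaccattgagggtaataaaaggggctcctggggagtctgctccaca

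The Cxcl10 window held 1 response element core, at bases -213 to -204 from the start, 2 κB matches, at -159 to -150 and -103 to -94, and 1 AP-1 match at -74 to -68. Of 32851 promoter windows of the same length, 2.98% held the response element core, 3.899% a κB match, 6.75% an AP-1 match, 7.02% the STAT site and 13.8% the TCF site. The windows of Xcl1, Ccl3 and Ccl1 held none of the 5 motifs. A match describes letters in this window only.

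Other chemokines were scarce in these cells. Of 31 further chemokine genes in the matrices, 4 reached 5 CPM in a tumor library, Ccl9 (13.6 CPM in control and 16.045 CPM in CD8-IFNγRKO tumor), Ccl27a (9.44 and 6.98 CPM), Ccl25 (5.26 and 6.47 CPM) and Ccl6 (5.26 and 3.16 CPM), and none differed 2-fold between the tumors. Cxcl9, another CXCR3 ligand, was at 1.06 CPM in control and 0.38 CPM in CD8-IFNγRKO tumor. Among receptors of the chemokines, Cxcr3 was at 43.9 CPM in control and 33.2 CPM in CD8-IFNγRKO tumor. Ccr1 and Ccr8 were at least 2-fold lower in CD8-IFNγRKO tumor, Ccr1 at 15.3 against 2.84 CPM (log2 ratio -2.09) and Ccr8 at 40.02 against 18.8 CPM (-1.05). Of all 8971 genes tested, 1.06% were at least 2-fold lower. Xcr1, the XCL1 receptor, was at 0.438 and 0.341 CPM, and Ackr1 had no UMI in the tumors. Cxcr3 was higher in Tcf7-positive cells, at 84.6 against 41.9 CPM in control (log2 ratio 0.995) and 106.6 against 28.5 CPM in CD8-IFNγRKO tumor (1.87). In control, Ccr1 was lower in Tcf7-positive cells, at 7.32 against 15.7 CPM (-1.01), as was Ccr8 at 21.6 against 40.9 CPM (-0.89). In CD8-IFNγRKO tumor Ccr8 was at 19.7 against 18.7 CPM, and Ccr1 was below 5 CPM. By Tcf7, 2.77% of all genes tested were at least 2-fold higher and 1.28% lower in control. The shares were 3.52% and 1.42% in CD8-IFNγRKO tumor. Of 11 early activation genes that passed 5 CPM, 3 were at least 2-fold lower in CD8-IFNγRKO than in control tumor, beside 1.06% of all genes tested. They were Nr4a1 (124.2 against 261 CPM), Egr1 (82.3 against 197 CPM) and Nr4a3 (35.0 against 81.2 CPM), while Ifng was at 425 and 474 CPM. None of 6 interferon-induced genes passed 2-fold between the tumors, and Irf1 had the lowest log2 ratio among them at -0.74.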

How the data were processed

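The authors deposited UMI count matrices of 4 single-cell RNA libraries and filtered TCR contig tables of 2 tumor libraries. Per the file headers and the submitters' processing notes, counts came from Cell Ranger 6.0.0 on build mm10, with no normalization. The study's cell filter was applied, which asks for detection of Cd2, Cd8a and Cd8b1 and for between 200 and 6000 detected genes, and drops cells above 3% mitochondrial content or with a gene above 20% of the counts. Cells with UMIs of 3 or more of 9 myeloid markers (0 to 9 per library) were left out. Doublets were not called. UMIs were summed per group (pooled CPM), with exact Poisson, Clopper-Pearson and conditional binomial 95% intervals. Log2 ratios had 1 CPM added, 2-fold was the limit, and genes were tested against it at 5 CPM or more in either group, TCR segments left out. Depth was equalised by thinning cells to 1600 UMIs, which left out 41 to 701 cells per library. A clone is a pair of α and β TCR chains, each read from the contig best covered by UMIs. Names beyond the 6 genes are the 3 most similar genes at r of 0.1 or more, with a UMI in 1% of thinned cells of both libraries, and up to 4 genes of a list, with single genes and clones added after their values were seen. The members and lists were chosen with earlier results of these data known. Counting and thinning were checked on simulated data. Python 3.11.15, numpy 2.4.6, scipy 1.17.1 and pandas 2.3.3 were used. A further gene of the receptor list is not reported here.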

Additional observations from a re-analysis of the deposited data

Results flagged for a closer look

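Xcl1 went in opposite directions in the 2 tissues for the same contrast of CD8-IFNγRKO over control. Its log2 ratio was 1.64 in the tumor and -0.38 in the lymph node, with intervals on either side of 0. The difference between the tissues was not tested, since each group is 1 library. The lymph node ratio rests in part on 1 control cell with 143 of 667 Xcl1 UMIs, and over the alternatives it ran from -0.77 to -0.0050, the last with all deposited barcodes. Without the top cell of each library the levels were 17.5 and 15.2 CPM.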

How the results depend on the processing

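No paired analysis was possible because each group is a single library. Under the alternatives, 246 single-gene ratios stayed within the counting interval of the main ratio and 244 moved outside it. Of ratios past 2-fold, a further 2 turned direction, both of Xcl1. Its tumor over lymph node ratio in control mice was -0.25 among cells of 4000 to 8000 UMIs, and its Tcf7 ratio in control tumor was -0.066 with Tcf7 read in thinned cells. Smaller ratios that also took the other sign under an alternative were those between tumor genotypes of Ccl3 (up to 0.037), Ccl4 (0.16) and Cxcl10 (0.28), those between lymph nodes of Ccl5 (0.049) and Ccl1 (down to -0.057), and that of Ccl5 by Tcf7 in CD8-IFNγRKO tumor (up to 0.050). In CD8-IFNγRKO over control tumor, the ratios ran from -1.62 to -1.003 for Ccl5, from 1.48 to 3.09 for Xcl1 and from -1.35 to -0.80 for Ccl1, and Ccl1 left the 2-fold calls in 6 alternatives. In the lymph node, 1 of the 6 genes was past the limit without the 1% of cells highest in it, or with log2 0.5 as the limit, against 0. By Tcf7 in control tumor, 6 were past it at log2 0.5 or among cells of 4000 to 8000 UMIs, against 3. The share of all genes past these altered limits was not counted, so whether these counts stand out from all genes cannot be told. Over all cells, the quartiles of the log2 ratio of all tested genes were -0.04 and 0.099 between lymph nodes. They were -0.23 and 0.19 by Tcf7 in control tumor. Of all genes, those past 2-fold at 50 CPM or more numbered 39 against 160 (tumor genotypes), 2 against 8 (lymph node genotypes), 926 against 2562 (tissues, control), 1094 against 2788 (tissues, CD8-IFNγRKO), 85 against 370 (Tcf7, control) and 139 against 451 (Tcf7, CD8-IFNγRKO). With no minimum they numbered 15 between lymph nodes and 643 by Tcf7 in control tumor. The cause of these shifts was not tested. Depth limits Ccl1, Ccl3 and Cxcl10 in the lymph node, where a count of 0 allows up to 0.104 CPM.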
